A study of Mus musculus with 2 samples.

Results

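Read positions were examined at the genes of 4 transcription factors, Sox2, Pou5f1 (also called Oct4), Klf4 and Myc, the set known for reprogramming somatic cells to pluripotency. The genes were chosen by name with their values in these same libraries known, and Sox2 was selected on its read counts. The levels below are therefore a description and carry no test. The 4 genes make up 180 of the 26389073 windows of 100 bp on chromosomes 1 to 19 and X. They are 4 of the 49997 genes in the RefSeq gene table at hand. The reads come from chromatin immunoprecipitation with sequencing (ChIP-seq), which reads DNA fragments recovered with an antibody, here one against Tnni2. Tnni2 encodes the inhibitory troponin subunit of fast skeletal muscle. One library was made from primary osteoblasts, the bone-forming cells, of mice with del175k on both copies of Tnni2 (mutant), and 1 from those of wild-type littermates, both of strain 129sv. The series text states n = 3, the animals' ages and any pooling are not stated in the labels, and neither an input nor a control-antibody library was analysed here. With 1 library per genotype every comparison is between 2 libraries, has no replicate check and no p-value. ChIP reads do not report expression, so the cell type was not checked against marker genes.

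Sox2 is a transcription factor with an HMG-box DNA-binding domain that maintains pluripotent and neural progenitor cells, and its gene has no introns. Pou5f1 is a POU-domain factor of early embryonic cells that pairs with Sox2 on composite sites. Klf4 is a zinc-finger factor that binds GC-rich DNA, and Myc is a basic helix-loop-helix factor that drives growth and proliferation. Genes for Pou5f1, Klf4 and Myc are split into exons. A gene in its chromosomal place has flanks, untranslated ends and, in most genes, introns, whereas a cloned coding sequence has none of these. The question was therefore whether reads at these genes continue past the coding ends or stop there. The origin of the DNA at Sox2 was not tested.

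Reads that shared chromosome, 5′ end and strand were counted as 1 distinct position, since copies made by PCR are not independent. The mutant library held 3003795 distinct positions and the wild-type library 2920353, with means of 1.18 and 1.14 positions per kb over the autosomes. Counts between libraries were scaled to the autosomal positions, 2927228 and 2821498. Intervals are exact 95% intervals and cover counting error only. Those of folds over flanks take the flank density as fixed. They leave out the counting error of the flanks, which held 21 to 34 positions, and are too narrow. The coordinates are those of the deposited reads, counted from 1. The series text names mouse reference 8, but reads on chromosome 7 reach position 152524453, which from general knowledge lies beyond the end of that chromosome in mm8 and within it in mm9, so the build is taken as mm9-like and is not settled.

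Sox2 carried a dense pile-up of reads in both libraries, and it covered the coding sequence and little else. The gene interval on chromosome 3 from 34548901 to 34551400 (gene ID 20674) held 122 distinct positions in the mutant and 116 in wild type. The 10 kb on either side together held 24 and 25. The coding part, given with the interval as about 34549301 to 34550300, held 122 of the 122 mutant positions and 113 of the 116 wild-type positions. Its density was 122 positions per kb (101 to 146) in the mutant and 113 (93.1 to 136) in wild type. These densities were 102 times (84.4 to 121) and 90.4 times (74.5 to 109) those of the flanks. The flanks themselves, at 1.20 and 1.25 positions per kb, stood at 1.01 and 1.10 times the autosomal mean of their library.

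The rest of the Sox2 gene was at or near background. The 1500 bp of the interval outside the coding part held 0 mutant positions, with an exact upper limit of 2.05 times the flank density, or 1.67 times if a count of 0 is taken to allow 3. It held 3 wild-type positions, 1.60 times the flanks (0.330 to 4.68). Of these 3, the 400 bp before the coding part held 1 and the 1100 bp after it held 2. The 300 bp before the gene interval held 0 positions in both libraries, with an upper limit of 12.3 per kb in each. That is far above the flank density of 1.20 and 1.25 per kb, at which so short a stretch would most often hold 0 too. The promoter is shown here because it lies upstream of the pile-up. The sequence is the 250 bases before the Sox2 start in RefSeq, build GRCm38.p6, plus strand, chr3:34649745-34649994, a build other than that of the reads. Capitals mark a match to ATGCAAA, part of the octamer element that POU factors recognise, searched on both strands.

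Sox2 promoter: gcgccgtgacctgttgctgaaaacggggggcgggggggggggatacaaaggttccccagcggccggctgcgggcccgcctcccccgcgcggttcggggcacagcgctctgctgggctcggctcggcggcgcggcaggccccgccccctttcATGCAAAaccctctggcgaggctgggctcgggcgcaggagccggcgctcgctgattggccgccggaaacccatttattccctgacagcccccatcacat

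The match lies 99 bases before the start, and 4.12% of the 32851 promoters in the table hold this motif in the same 250 bases. The stretch has a GC content of 72%, against a median of 52.4% over all promoters, and 6.87% of promoters have as much. The motif match is a description and not evidence of binding.

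**Figure D1:**
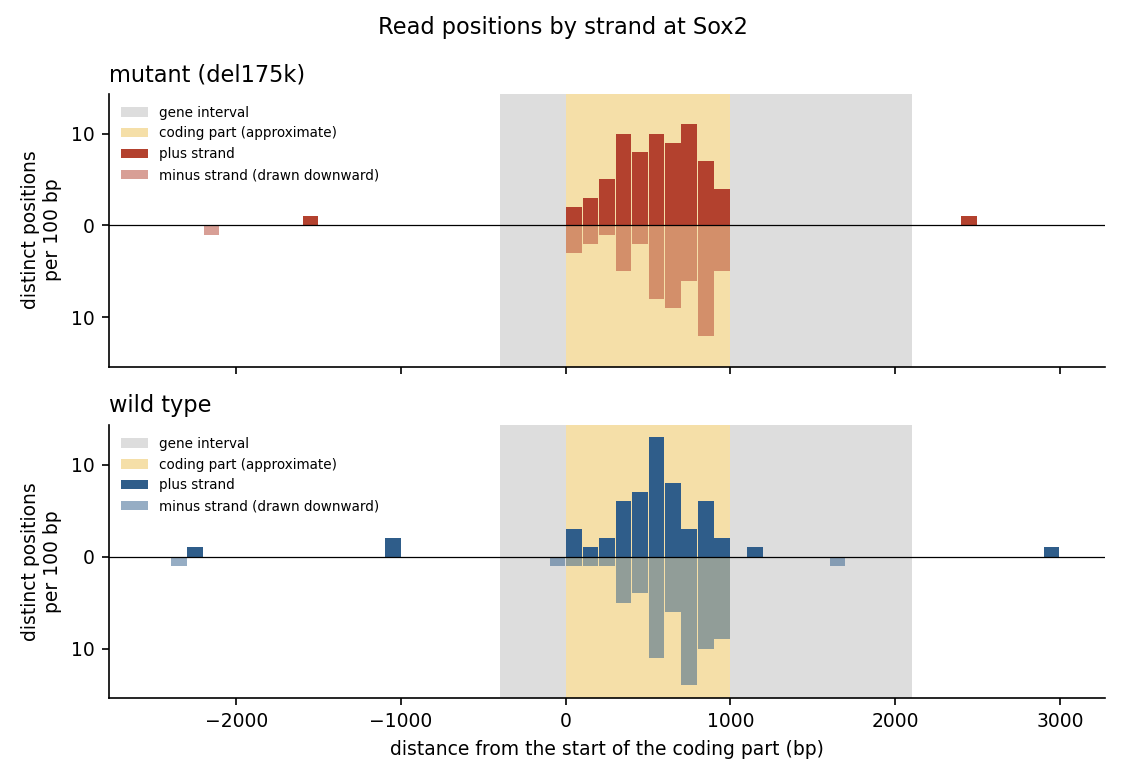
Distinct read positions per 100 bp at Sox2 (y axis, plus strand upward and minus strand downward) against the distance in bp from the start of the coding part (x axis), for the mutant library above and the wild-type library below. Grey marks the gene interval and yellow the approximate coding part, which holds 122 mutant and 113 wild-type positions against 0 and 3 in the rest of the gene interval.

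Reads stopped close to both coding ends in both libraries. In the mutant the first base covered within the coding part was 34549348 and the last 34550295. In wild type they were 34549341 and 34550297. The left edges thus lay 7 bp apart between the libraries and the right edges 2 bp apart. Not 1 read in either library crossed an end of the coding part. The ends are known only as rounded positions, so the edges can be placed against them only roughly. The first bases lay 47 bp (mutant) and 40 bp (wild type) inside the given start, and the last bases 5 and 3 bp inside the given end.

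Beyond the edges the next reads were far away in the mutant and single in wild type. The nearest mutant reads ended 1540 bp before the coding part and began 1466 bp after it. In wild type 1 read ended 49 bp before the coding part and 1 began 108 bp after it. When reads separated by gaps of at most 100 bp were linked, the mutant stretch ran from 34549348 to 34550295 (948 bp). The wild-type stretch ran from 34549217 to 34550297 (1081 bp). Its first base belongs to that single read on the left, and with gaps of at most 80 bp, a limit chosen after the data were seen, the wild-type stretch began at 34549341 and measured 957 bp.

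Both strands reached both edges. Plus-strand reads in the mutant covered bases from 34549348 to 34550295 and minus-strand reads from 34549359 to 34550295. In wild type plus-strand reads ran from 34549341 to 34550276 and minus-strand reads from 34549349 to 34550297. Over the autosomes the commonest distance between opposite-strand reads was 215 bp for the mutant and 212 bp for wild type, which serves as the fragment length. Within 1 fragment length of the right coding end, 14 mutant and 9 wild-type positions lay on the plus strand, and a fragment of that length starting there would end past the coding part. The same distance beyond the end held 0 minus-strand positions in both libraries. At the left end 5 mutant and 2 wild-type minus-strand positions lay within 1 fragment length inside, and 0 plus-strand positions lay within the same distance outside.

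The strands were offset but interleaved within the coding part. The median plus-strand 5′ end lay 563 bp into the coding part in the mutant and 531 bp in wild type. The median minus-strand 5′ end lay at 677 and 716.5 bp. By strand the mutant library held 69 plus and 53 minus positions, and the wild-type library 51 and 62. The depth-scaled mutant to wild-type ratio was 1.30 on the plus strand (0.895 to 1.91) and 0.824 on the minus strand (0.560 to 1.21), and both intervals include 1. Over both libraries 50.8% of the positions in the Sox2 interval were on the plus strand (44.3 to 57.4%).

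Density was uneven along the coding part, and uneven in the same way in both libraries. The first 300 bp held 16 mutant and 9 wild-type positions, or 53.3 and 30 per kb. They begin at the rounded start and so include 47 bp (mutant) and 40 bp (wild type) before the first covered base. They also include a stretch of 93 bp, described below, in which no read of either library began. The last 700 bp held 106 and 104, or 151 and 149 per kb. The window from 34549301 held 5 mutant and 4 wild-type positions, the next 5 and 2, and the third 6 and 3. From 34549601 on the counts rose to 15 and 11, and the window from 34549701 held 10 and 11. The fullest wild-type window, from 34549801, held 24 positions, with 18 in the mutant. The windows from 34549901 and 34550001 held 18 and 14, and 17 and 17. The fullest mutant window, from 34550101, held 19 positions with 16 in wild type, and the last, from 34550201, held 9 and 11. The next window, from 34550301, held 0 in both. Across the 10 windows the libraries had a Pearson r of 0.888 and a Spearman rho of 0.889, and across the 20 values by strand 0.608 and 0.674. These describe windows that share their sequence and hence their base composition and mappability, and windows are not replicates.

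The positions themselves were mostly different ones. Of the 122 mutant and 113 wild-type positions in the coding part, 11 had the same 5′ end and strand, 9.02% and 9.73%. Repeated reads added little. The mutant coding part held 137 aligned reads, 1.12 per position, and the wild-type coding part 128 reads, 1.13 per position. The whole libraries stood at 1.09 and 1.13 reads per position.

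At 5 places inside the coding part no read of either library began, on either strand. Counted by leftmost base from the start of the coding part, these stretches of 40 bp or more ran from base 71 to 111, 159 to 251, 398 to 451, 580 to 627 and 860 to 913. The longest was 93 bp, from 34549459 to 34549551, and the others were 41, 54, 48 and 54 bp. Elsewhere reads began close together, with a median step of 2 bp between the 200 distinct starts of both libraries. As a result 115 of the 957 bp between the outermost edges were covered by no read of either library. Taken alone, the mutant library left 150 bp of its span uncovered and the wild-type library 160 bp. By definition each of the 5 shared stretches lies within a stretch free of starts in each library. The wild-type library by itself had no further stretch of 40 bp or more. The mutant library had 1 more, of 42 bp, from 34550014 to 34550055. How uniquely each 36 bp read can be placed there was not analysed here, and its part in these gaps was not tested.

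**Figure D2:**
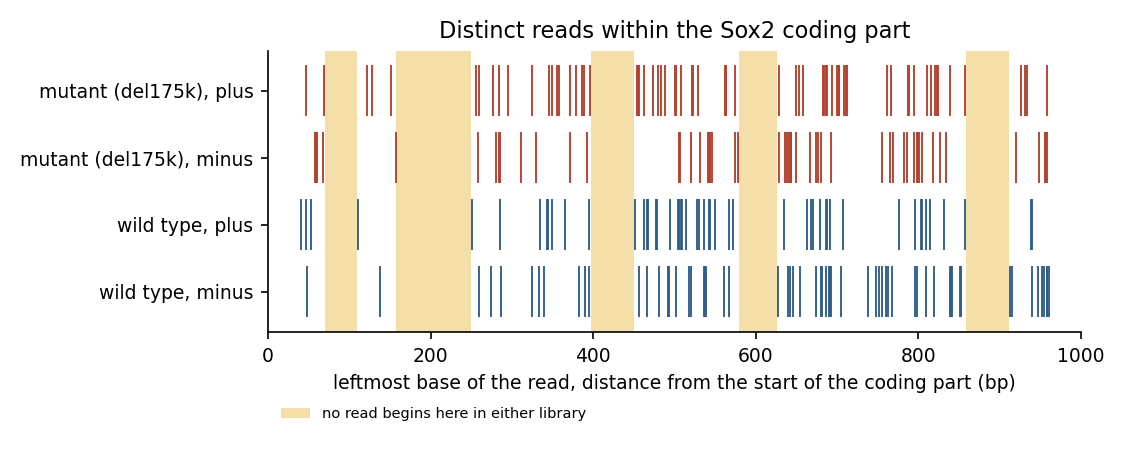
Each line is 1 distinct read in the Sox2 coding part, drawn at its leftmost base (x axis, distance in bp from the start of the coding part), in rows by library and strand. Yellow bands mark the 5 stretches of 41 to 93 bp in which no read of either library begins.

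The amount of Sox2 DNA did not differ between the libraries beyond counting error. The mutant to wild-type ratio of the coding part was 1.04 (0.799 to 1.36). The ratio of the flanks was 0.925 (0.506 to 1.69). Of the 7 Sox2 windows with a sum of 10 or more positions over both libraries, 0 differed by 2-fold or more in either direction, where 20.7% of the 609 such windows on chromosomes 1 to 19 and X did. The 7 Sox2 windows held 9 to 19 mutant and 11 to 24 wild-type positions each, with ratios from 0.723 to 1.31. A window enters the 609 with a sum of only 10, where counting error alone can pass 2-fold. The shares are not matched for depth and do not show that Sox2 is steadier than other windows. A window counted as called where it held 3 or more positions at 10 or more times the larger of the library mean and the mean of the 10 kb on either side. In the Sox2 interval 7 of 25 windows were called in each library, against 0.0603% of all windows in the mutant and 0.0609% in wild type. These 7 were the last 7 windows of the coding part, and the 3 sparser windows before them were not called. The pile-up itself enters the local mean, and the wild-type window from 34549401, with 2 positions, is under the minimum on any background. Against the library mean alone, a background chosen after the data were seen, 10 mutant and 9 wild-type windows were called.

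Few places in the genome held as many positions in so short a stretch. Among the 2360319 linked stretches of the mutant on these chromosomes, 12 held as many positions as Sox2 or more, Sox2 included, and among 2288763 in wild type 13 did. Stretches of at most 5 kb that reached the Sox2 count in both libraries numbered 9. Besides Sox2 there were 3 on chromosome 11 (from 3052096, 3054540 and 3091063 in the mutant), 3 on chromosome 2 (from 98502387, 98503792 and 98506396), 1 on chromosome 17 (from 39980004) and 1 on chromosome 9 (from 35112796). Of intervals of 2500 bp laid end to end, 20 of 1055552 in the mutant and 24 in wild type held as many positions as the Sox2 interval, where the median interval held 2 positions in each library.

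As linked, Sox2 was the only 1 of these 9 stretches to combine flanks near the autosomal mean with few copies per position. Around 7 of the other 8, on chromosomes 2, 11 and 17, the 10 kb on either side held from 4.60 to 46.2 times the autosomal mean in the mutant and from 6.0 to 51.0 times in wild type. Around the Sox2 stretch the flanks stood at 0.929 and 1.10 times the mean, and around the stretch on chromosome 9 at 1.14 and 0.832 times. That stretch on chromosome 9, of 384 bp, held 4.54 and 4.37 aligned reads per position, against 1.12 and 1.13 for the Sox2 stretch. The 3 stretches on chromosome 2 also held repeated reads, from 1.85 to 7.54 per position in the mutant. Those on chromosomes 11 and 17 had few, from 1.09 to 1.12 in the mutant. These flanks include neighbouring stretches that the 100 bp linking gap kept separate. On chromosome 17 such a neighbour held 96 of the 109 mutant flank positions and 128 of the 137 in wild type. The fuller flanks there thus come mostly from that neighbour and do not set Sox2 apart from that place. The 3 stretches on chromosome 2 lie in each other's flanks. This comparison was put together after the values were seen.

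**Figure D3:**
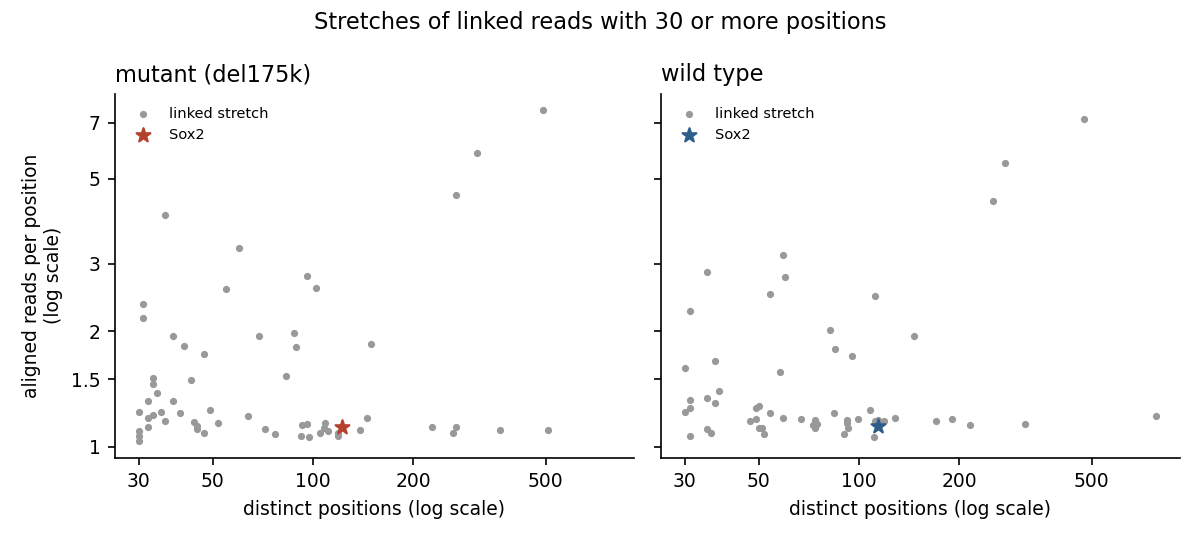
Stretches of reads linked by gaps of at most 100 bp with 30 or more distinct positions, 61 in the mutant and 57 in wild type, by their distinct positions (x axis, log scale) and aligned reads per position (y axis, log scale). The star marks Sox2, at 122 positions and 1.12 reads per position in the mutant and 114 and 1.13 in wild type.

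Pou5f1 showed no comparable pile-up. Its interval on chromosome 17 from 35642901 to 35647800 (gene ID 18999) held 9 positions in each library. The flanks held 25 and 31, so that the interval stood at 1.47 times the flanks in the mutant (0.672 to 2.79) and 1.18 times in wild type (0.542 to 2.25). Both intervals include 1. No window held more than 2 positions, 41 of 49 windows held 0 in each library, and 0 were called in either. The ratio between the libraries was 0.964 (0.339 to 2.74). Among intervals of this length over the genome, 21.7% held as many positions in the mutant and 20.9% in wild type. The RefSeq table lists 7 pseudogenes named after Pou5f1, and reads shared with them may have been placed elsewhere or dropped by the aligner, so a low count here is uncertain.

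Klf4 likewise showed no comparable pile-up. The interval on chromosome 4 from 55540001 to 55545400 (gene ID 16600) held 6 mutant and 9 wild-type positions, with 21 and 22 in the flanks. These were 1.06 times the flanks (0.388 to 2.30) and 1.52 times (0.693 to 2.88), and both intervals include 1. No window held more than 1 position in the mutant or 2 in wild type, and 0 of 54 were called in either. All of the 6 mutant and 9 wild-type positions lay between 55542401 and 55544400, and the rest of the interval held 0. Whether this layout follows the exons was not tested. The ratio of 0.643 between the libraries rested on these few positions and its interval reached from 0.188 to 2.02. Of intervals of this length, 52.9% held as many positions in the mutant and 25.8% in wild type.

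Myc lay between these genes and Sox2. Its interval on chromosome 15 from 61816801 to 61822000 (gene ID 17869) held 22 positions in the mutant and 15 in wild type. The flanks held 21 and 34. The interval stood at 4.03 times the flanks in the mutant (2.53 to 6.10), above 1, and at 1.70 times in wild type (0.95 to 2.80), where the interval includes 1 against these 10 kb flanks. Part of the gap between these folds lies in the flanks, which held 0.887 times the autosomal mean in the mutant and 1.49 times in wild type. Against that mean the Myc interval stood at 3.57 and 2.53 times. Its wild-type density of 2.88 positions per kb (1.61 to 4.76) lay wholly above the mean of 1.14, and against flanks of 50 kb the wild-type fold was 2.15. As many positions were found in 0.0936% of intervals of this length in the mutant and in 3.20% in wild type.

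The Myc reads were sparse, and 38 mutant and 39 wild-type windows of 52 held 0 positions. The densest 1 kb was the same in both libraries, from 61818801 to 61819800, with 13 mutant and 7 wild-type positions, where the densest 1 kb of Sox2 held 122 and 113. Called windows numbered 2 of 52 in the mutant, from 61819401 with 4 positions and from 61819701 with 3, and 0 in wild type, which held 2 positions in each of these windows. The share over all windows was 0.0603% and 0.0609%, and of the 200 windows of the Myc flanks 1 was called in the mutant (from 61810701, 3 positions). With so few positions per window these calls fall away when 5 positions are required. The ratio of 1.41 between the libraries had an interval that includes 1 (0.701 to 2.93). Scaled to the Myc flanks in place of the autosomal total, it was 2.37. Over both libraries 27 of 37 Myc positions lay on the plus strand, 73.0% (55.9 to 86.2%), with 16 plus and 6 minus in the mutant and 11 and 4 in wild type. In the Myc flanks the share was 43.6% (30.3 to 57.7%), and in the whole libraries the strands were even. The imbalance was noticed among 4 genes after the values were seen and was not tested further.

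Exon ends of Pou5f1, Klf4 and Myc in the build of the reads were not used here, so whether their reads stop at exon ends could not be asked directly. The densest 1 kb held 5 positions in each library at Pou5f1, and 4 mutant and 7 wild-type positions at Klf4. The Sox2 coding part, 1 kb without introns, held 122 mutant and 113 wild-type positions. The other genes are split into exons, so their coding sequence may fill only part of 1 kb. Their counts per 1 kb are therefore not like for like with Sox2. The other genes of the pluripotency network set down for comparison, Nanog, Lin28a and Esrrb among them, were not analysed here. No annotation in the build of the reads was used for them.

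**Figure D4:**
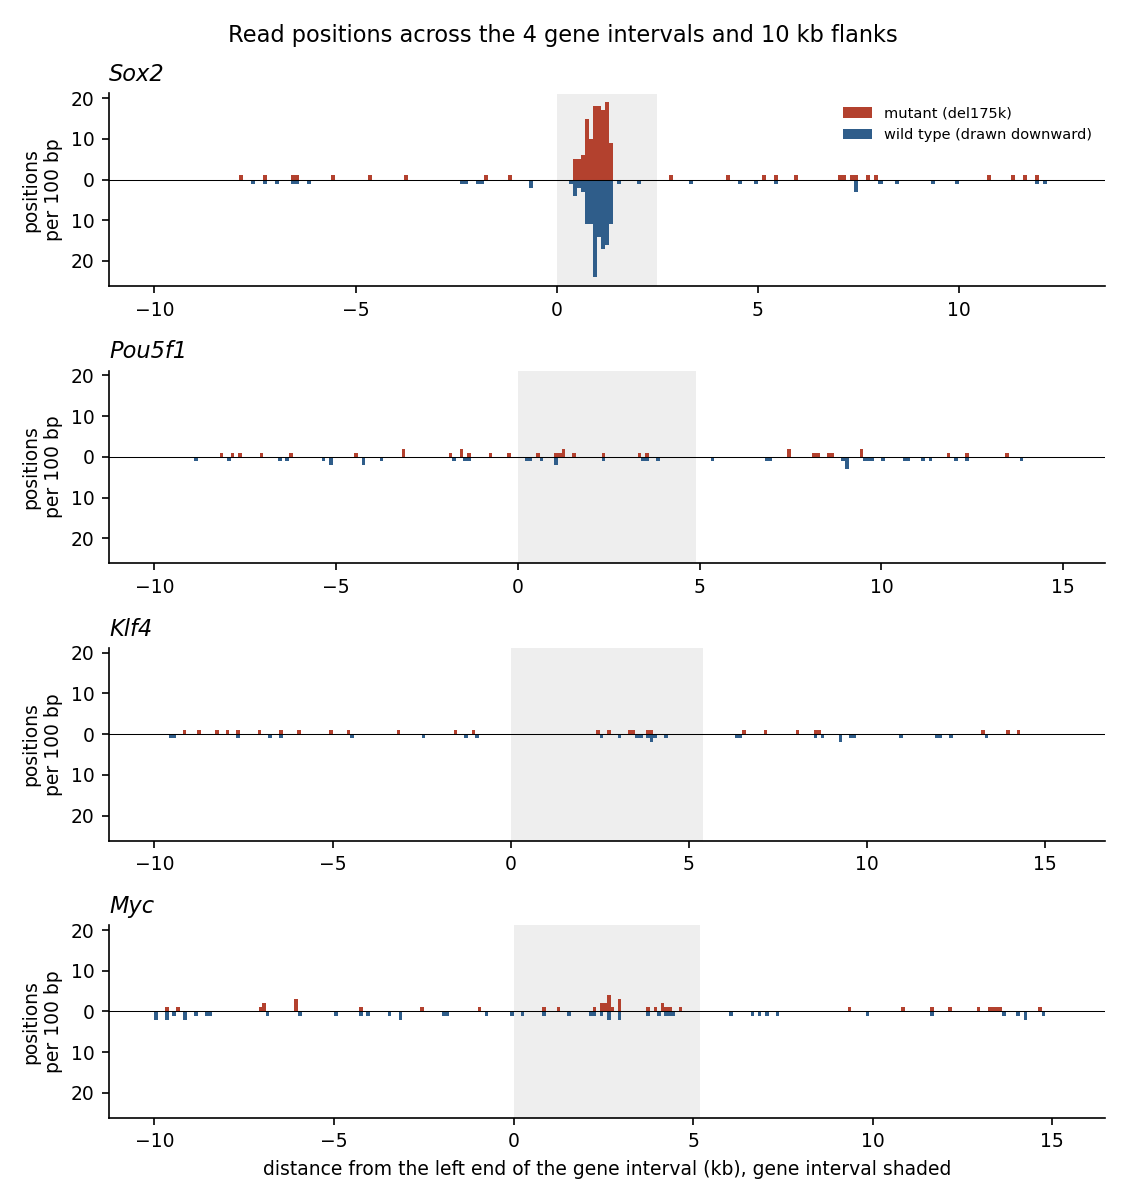
Distinct positions per 100 bp (y axis, mutant upward and wild type downward, same scale in each panel) across the 4 gene intervals (grey) and their 10 kb flanks, against the distance in kb from the left end of the interval (x axis). Sox2 reaches 19 mutant and 24 wild-type positions in a window, and no window of Pou5f1, Klf4 or Myc holds more than 4.

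**Figure D5:**
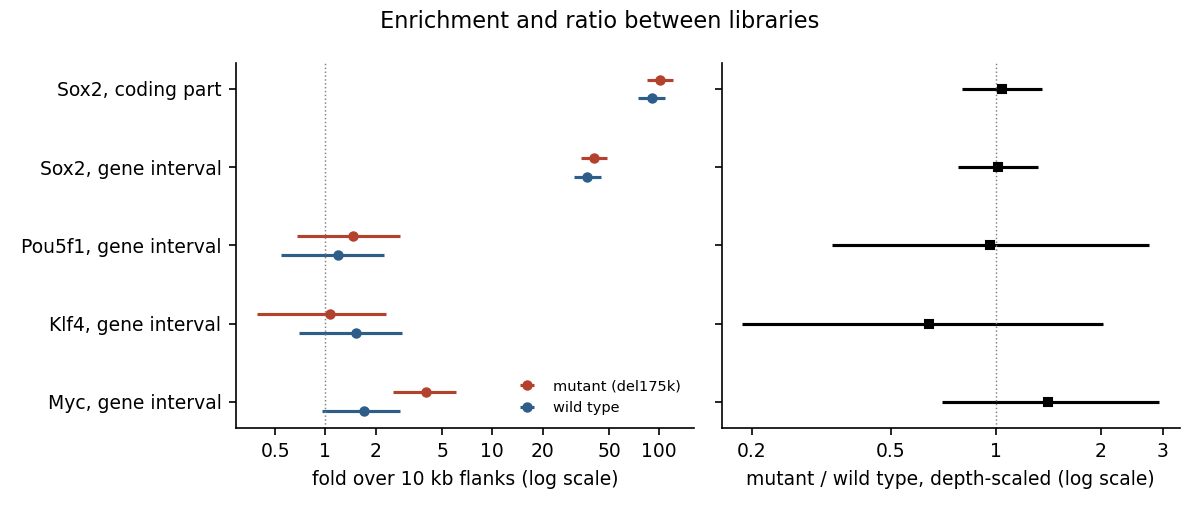
Left, positions in each interval over those foreseen from its 10 kb flanks (x axis, log scale) in the mutant and wild-type libraries with exact Poisson 95% intervals. These take the flank density as fixed. Right, the depth-scaled ratio of mutant to wild-type positions (x axis, log scale) with exact Clopper-Pearson 95% intervals, which include 1 for all 4 genes and for the Sox2 coding part.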

How the data were processed

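Bowtie placed the reads, per the submitters' processing notes; version, settings and filters: not given in the sources used here. The deposited files give start, end and strand for every aligned read. Their score column, as the authors deposited it, holds the value 255 throughout and was left out. All reads span 36 bp. Gene intervals and lists were chosen with earlier results of these data known. They were written as 34548901 rather than 34548900 and so on, so that they divide into 100 bp windows. Folds over flanks used a Poisson interval with the flank density taken as fixed, and ratios a Clopper-Pearson interval. All 4 genes, every called window in them, and every stretch of at most 5 kb with as many positions as Sox2 in both libraries are named. Window calls and linking were tested on simulated data. For calls, windows picked at random were raised, so adjacent raised windows such as those of Sox2 were not covered. For linking, background reads close to the simulated stretches were left out. That test therefore does not cover a stray read such as the wild-type one left of Sox2. Alternatives covered repeated reads, flanks, windows, background, minimum, linking and scaling. Python 3.11.15, numpy 2.4.6, pandas 2.3.3, scipy 1.17.1 and matplotlib 3.10.9 were used. Promoter sequence came from RefSeq, GRCm38.p6, in which Sox2, Pou5f1, Klf4 and Myc were matched by symbol.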

Additional observations from a re-analysis of the deposited data

How the results depend on the processing

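Of 107 recomputed values, 88 stayed within the interval of the reported value, within 1.5 times a count, or within 1 read length of an edge. Some of the 88 could not have moved. The Sox2 stretch was linked from every aligned read in the main result too, so that setting only repeated its edges. The 10 values with the background of the 10 kb around alone were also fixed. There 10 times the library mean is under the minimum of 3 positions, so leaving that mean out changes no call. Raising the minimum to 5 positions can only remove calls, so counts of 0 were fixed. Those of Sox2 were too, since its called windows held 9 or more positions. With flanks of 50 kb the mutant fold fell to 28.9 for the Sox2 interval and 72.2 for its coding part. Windows of 200 bp gave 27056 mutant and 25222 wild-type calls over the genome, 3 each in Sox2, 1 in Pou5f1 in the mutant library and 1 in Klf4 in the wild-type library. Every aligned read gave 64580 and 92864 calls, 1 of them in Pou5f1 in the wild-type library, and 209 windows that differed between the libraries. A minimum of 5 positions left 232 and 255 calls and 0 in Myc in the mutant library. Linking over 200 bp moved the wild-type end of the Sox2 stretch to 34550443 (1227 bp). Linking over 80 bp, chosen after the data were seen, moved its start to 34549341 (957 bp). The ratios between the libraries of the 4 genes and the Sox2 coding part each stayed within their interval with every aligned read, median scaling and scaling to the flanks, but that of Myc moved from 1.41 to 2.37 with scaling to its flanks. The causes were not tested, except that 200 bp windows and the minimum change what is counted. With 1 library per genotype none could be left out. No paired analysis was possible because each group holds 1 library. Depth limits Pou5f1, Klf4 and Myc, whose ratios rest on 6 to 22 positions per library.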
